A study of Mus musculus with 2 samples.

Results

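The genes described here are the 3 microRNA (miRNA) genes Mir126a, Mir221 and Mir222, known from blood vessel endothelium. They were taken by name, by a rule that uses no measured value, from the 1973 miRNA genes in the files. Earlier results of these data were known when these 3 genes were chosen. All 3 had a line in both libraries. The study sequenced RNA of under 30 nt from whole kidneys of healthy B6NCrl mouse embryos at 15.5 days of development. All samples belong to 1 group, whose 2 libraries the labels number as biological replicates, with no treated, mutant or older group to set against them. Replicate 1 is a pool of kidneys from 78 embryos and replicate 2 a pool from 62 embryos, with both sexes pooled. The labels give 1 donor identifier for both pools, so the spread between them need not be that between separate animals or litters. The data therefore answer how much of each miRNA gene the kidney of this age carries and how closely the pools match.

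A miRNA is cut from a hairpin in a longer transcript, loaded into an Argonaute protein and guided to messenger RNAs mainly by its seed, the bases near its 5′ end. Mir126a lies within Egfl7, a gene of endothelial cells, and miR-126 is the miRNA best known from endothelium. In mouse and zebrafish it lowers Spred1 and a regulatory subunit of phosphoinositide 3-kinase, which dampen the signal of vascular endothelial growth factor, and its loss makes vessels leak. Mir221 and Mir222 lie next to each other on the X chromosome. In human endothelial cells they lower KIT, the receptor of stem cell factor, and in human cell lines they lower the cell cycle inhibitor p27. They are also made in vascular smooth muscle and blood cells. In the developing kidney, endothelial cells form the capillaries of the glomeruli and the vessels around the growing tubules.

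The mature sequences are shown because the seed, bases 2 to 8 in capitals, sets miR-126 apart from the other members and joins miR-221 to miR-222. They were taken from RefSeq on GRCm38.p6, which held entries for all 3 genes, and are written 5′ to 3′. RefSeq held no 5p arm of Mir126a or Mir222, so none is shown for them.
miR-126a-3p: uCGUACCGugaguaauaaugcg
miR-221-3p: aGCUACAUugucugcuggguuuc
miR-222-3p: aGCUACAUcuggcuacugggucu
miR-221-5p: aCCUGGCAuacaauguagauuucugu
miR-126a-3p lies at chr2:26591402-26591423 on the plus strand. miR-221-3p lies at chrX:19146307-19146329 and miR-222-3p at chrX:19146901-19146923, both on the minus strand. The seed of miR-126a-3p occurs in 0 other mature miRNAs of the RefSeq table. The seed GCUACAU is shared by miR-221-3p, miR-222-3p and 1 further mature miRNA, miR-1928. The 2 cluster miRNAs are identical over their first 8 bases, and at 11 of 23 positions when set side by side from the 5′ end. Mir1928, on chromosome 1, had 0 own-strand reads in both libraries, which allows a level of up to 0.404 CPM (counts per 1000000 own-strand reads in miRNA genes) in replicate 1 and of 0.512 CPM in replicate 2.

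The hairpins are shown with the mature miRNAs of the RefSeq table in capitals, because each count in the files is for the whole hairpin and does not tell its arms apart.
Mir126a: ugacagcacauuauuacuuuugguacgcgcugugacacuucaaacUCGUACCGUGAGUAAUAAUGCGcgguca
Mir221: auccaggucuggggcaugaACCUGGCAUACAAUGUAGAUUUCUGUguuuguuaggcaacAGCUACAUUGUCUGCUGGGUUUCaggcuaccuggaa
Mir222: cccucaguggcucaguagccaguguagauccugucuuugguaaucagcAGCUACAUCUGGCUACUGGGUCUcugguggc
Mir126a (ENSMUSG00000065540.1) spans chr2:26591357-26591429 on the plus strand in mm10 (GRCm38), a hairpin of 73 nt. In GENCODE M21 it lies in an intron of 8 of the 9 Egfl7 transcripts that span it, and within an exon of 1, a transcript with a retained intron. In 6 of those 8 transcripts the intron measures 600 bases. The hairpin also lies in an intron of Gm20532, a gene that overlaps Egfl7 on the same strand. Mir221 (ENSMUSG00000065422.1) spans chrX:19146294-19146388 and Mir222 (ENSMUSG00000065471.1) chrX:19146893-19146971, both on the minus strand, with 504 bases between them and hairpins of 95 and 79 nt. No other annotated gene overlaps this span, and the nearest gene upstream on the same strand, Gm14636, lies 10009 bases away. No stretch of 20 nt of the 3 hairpins occurs in a miRNA gene elsewhere. Of the 1973 genes, 929 do share such a stretch, and their counts can be too low because the files set apart reads that match several loci.

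The files hold 7434182 (replicate 1) and 5863293 (replicate 2) reads on a miRNA gene's own strand, and these are the totals behind each CPM. The labelled tissue was described by 12 listed miRNA genes of the kidney, its Hox position and its nephrons. This is no test of the label, since the lists were chosen with earlier results of these data known. These 12 genes summed to 28.9% of counts in replicate 1 and 26.5% in replicate 2. Most of each sum was Mir10a, a gene of Hox position, at 167241 CPM in replicate 1 and 140739 CPM in replicate 2. Of the 12, 9 had 100 CPM or more in both libraries, as did 8.77% of all genes in the files, and 0 had a count of 0. Of the 6 measured genes of skeletal and heart muscle, 3 had a count of 0, but those 3 share sequence with another gene. Genes at a count of 0 in both libraries tied at rank 730 of 1973, so most genes in the files had no own-strand reads. The other 3 had reads, with mean levels of 809 CPM for Mir206, 24.5 CPM for Mir208b and 19.97 CPM for Mir499. The whole organ was sequenced and only miRNA genes were counted, so no endothelial messenger RNA was available to place the reads in endothelial cells. In whole tissue, fewer cells of a type and less RNA per cell cannot be told apart.

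Mir126a was one of the most abundant miRNA genes of the kidney. It had 369537 reads in replicate 1 and 280295 in replicate 2, which is 4.97% (95% exact binomial interval 4.96 to 4.99) and 4.78% (4.76 to 4.80) of counts. Its mean level was 48756 ± 1345 CPM (SD, n = 2). The gene ranked 5 in replicate 1 and 6 in replicate 2 of 1973 genes. Genes that share sequence with genes elsewhere can be counted too low, so Mir126a can stand too high in rank and share. Within chromosome 2 it was second to Mir10b, which had 61578 ± 5289 CPM, among 224 genes. The labels name no molecular identifiers, so reads are not independent molecules and intervals cover counting error only.

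Mir221 and Mir222 were present at far lower levels. Mir221 had 1655 reads in replicate 1 and 1483 in replicate 2, or 223 CPM (95% exact binomial interval 212 to 234) and 253 CPM (240.2 to 266). Its mean was 238 ± 21.4 CPM (SD, n = 2), which put it at rank 133. Mir222 had 909 and 898 reads, or 122 CPM (114 to 130.5) in replicate 1 and 153 CPM (143 to 164) in replicate 2. Its mean was 138 ± 21.8 CPM (SD, n = 2), at rank 163. On the X chromosome they stood at ranks 17 and 22 of 120 genes, under Mir322, which led at 40069 ± 1329 CPM.

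The order Mir126a, Mir221, Mir222 was the same in both libraries, and the libraries' ranges of neighbouring members in this order did not overlap. All 3 members reached 100 CPM in both libraries, as did 8.77% of all genes in the files. Together the members held 5.01% of counts in replicate 1 and 4.82% in replicate 2, and Mir221 with Mir222 held 0.0345% and 0.0406%. Nearly all reads of the 3 members were thus reads of Mir126a.

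**Figure D1:**
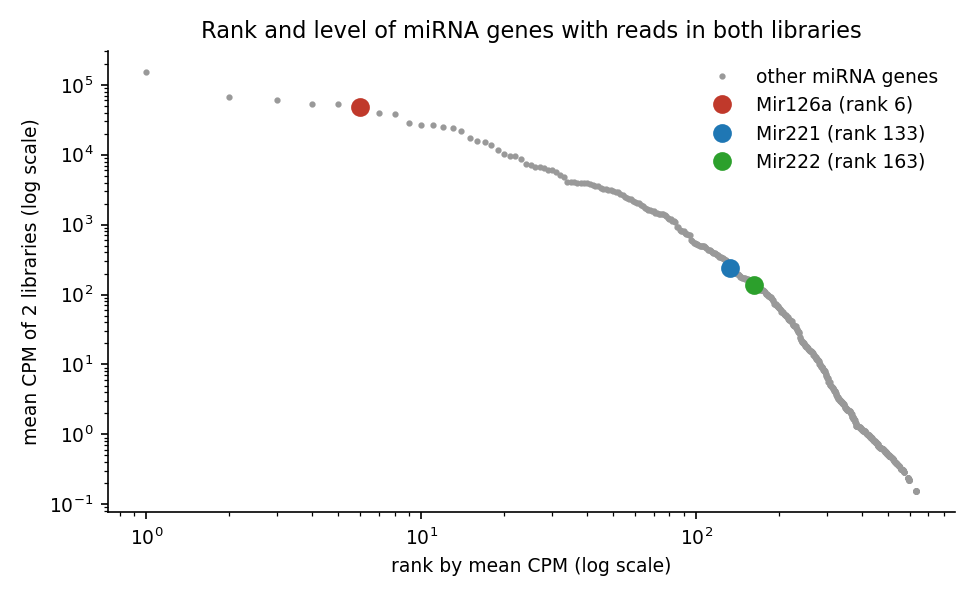
Mean CPM of each miRNA gene with reads in both libraries (y axis, log scale) against its rank (x axis, log scale). Mir126a, at rank 6, sits on the shoulder of the most abundant genes, while Mir221 and Mir222, at ranks 133 and 163, sit on the falling part of the curve.

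The ratio of Mir126a to the summed reads of Mir221 and Mir222 was 144 (95% exact binomial interval 139 to 149.9) in replicate 1 and 118 (113 to 123) in replicate 2. The intervals do not overlap, so the ratio differed between the pools by more than counting error. On the log2 scale it averaged 7.03 ± 0.21 (SD, n = 2). A ratio within a library does not depend on the library total. Reads were not divided by hairpin length, since a read of this assay covers a mature miRNA whatever the length of its hairpin. The files hold no measure of how evenly different miRNA sequences were captured, so ratios between genes are ratios of reads.

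Within the X-linked cluster, Mir221 exceeded Mir222 in both libraries. Mir221 supplied 64.5% (95% exact binomial interval 62.7 to 66.4) of their joint reads in replicate 1 and 62.3% (60.3 to 64.2) in replicate 2. These intervals overlap, and a difference in this share between the pools was not tested. The log2 ratio of Mir221 over Mir222 reads averaged 0.79 ± 0.10 (SD, n = 2), with 0.86 in replicate 1 and 0.72 in replicate 2. Divided by hairpin length it was 0.53.

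This cluster was among the more even of its kind. In the files, 53 pairs of neighbouring miRNA genes on 1 strand lay within 1 kb of each other and had a mean count of 100 or more for both partners. Among the 52 other pairs, 45 had a wider fold between the partners' mean CPM than Mir221 and Mir222, and 7 had a narrower one. The log2 fold of Mir221 over Mir222 was 0.79, against a median of 3.08 for the other pairs. The widest pairs were Mir20a over Mir19b-1, at a log2 fold of 9.25, and Mir99a over Mirlet7c-1, at 8.37. The narrowest were Mir27a over Mir24-2, at 0.13, and Mir181c over Mir181d, at 0.43. Mir19b-1, Mirlet7c-1, Mir27a and Mir24-2 share sequence with genes elsewhere, so their counts can be too low, and 17 of the 52 other pairs hold such a gene. Without these pairs, 30 of 35 were wider than Mir221 and Mir222. Pairs in 1 cluster share genes, so they are not independent, and no test was made. The log2 fold of Mir221 over Mir222 moved by 0.14 between libraries, and the median move of the other pairs was 0.31, with 19 of the 52 moving less.

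**Figure D2:**
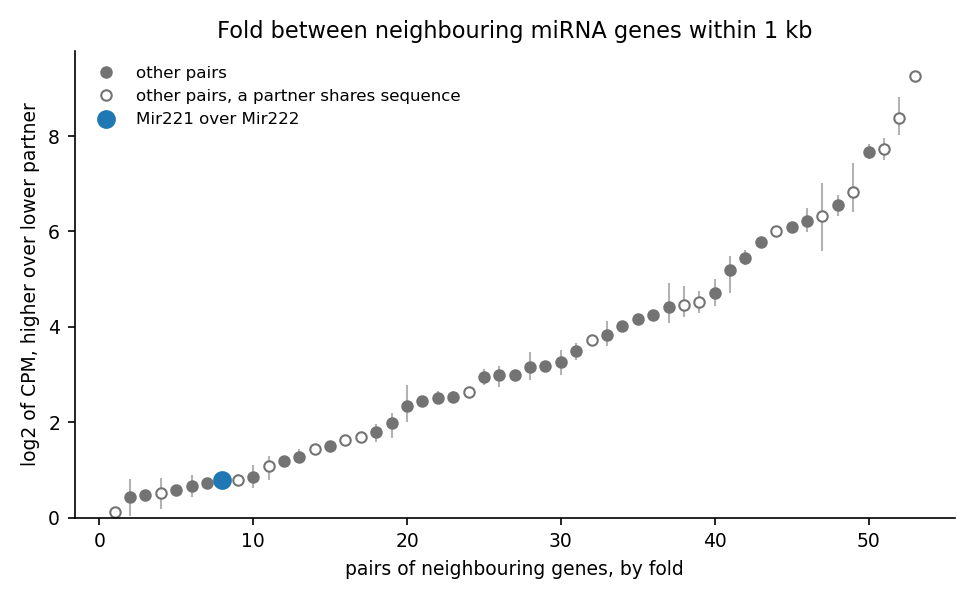
Each point is a pair of neighbouring miRNA genes on 1 strand within 1 kb, ordered by the log2 of mean CPM of the higher over the lower partner (y axis). Lines join the values of the 2 libraries and open points are pairs in which a partner shares sequence with a gene elsewhere. Mir221 over Mir222, at 0.79, lies near the low end, with 7 pairs under it and 45 above it.

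The pools differed by less than 1.5-fold in each member. Mir126a was higher in replicate 1, with a log2 ratio of replicate 1 over replicate 2 of 0.06 (95% exact binomial interval 0.05 to 0.06). Mir221 and Mir222 were lower in replicate 1, with log2 ratios of -0.18 (-0.29 to -0.08) and -0.32 (-0.46 to -0.19). With these totals all 3 intervals leave out 0, but for Mir221 this depends on the scaling. None of the 3 members passed 1.5-fold between the libraries, as 15.9% of the 264 genes did whose mean count was 100 or more. The median log2 ratio of the 264 genes was -0.13, and the median absolute log2 ratio was 0.25. The share of the 264 genes with a smaller absolute log2 ratio was 15.2% for Mir126a, 39.0% for Mir221 and 62.9% for Mir222. Mir222 thus differed more between the pools than most of these genes. Relative to that median, Mir126a stood at 0.19, Mir221 at -0.05 and Mir222 at -0.19. Scaling by TMM factors or DESeq2 size factors moved every log2 ratio up by 0.13 and 0.16, and the signs of all 3 members held under both. The interval of Mir221 then spanned 0, at -0.06 (-0.16 to 0.05) with TMM and -0.02 (-0.13 to 0.08) with DESeq2 size factors, while those of Mir126a and Mir222 left out 0 under both. The coefficient of variation between the libraries was 2.76% for Mir126a, 9.01% for Mir221 and 15.9% for Mir222, while counting alone gives 0.175%, 2.52% and 3.33% at their mean counts. The order of these spreads depends on the scaling. With DESeq2 size factors the SD was 5175 CPM on a mean of 48884 CPM for Mir126a. It was 2.80 CPM on 237.3 CPM for Mir221 and 11.1 CPM on 137.1 CPM for Mir222. Mir126a then had the widest spread for its level, and Mir221 the narrowest. With 2 libraries all these spreads are themselves imprecise.

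**Figure D3:**
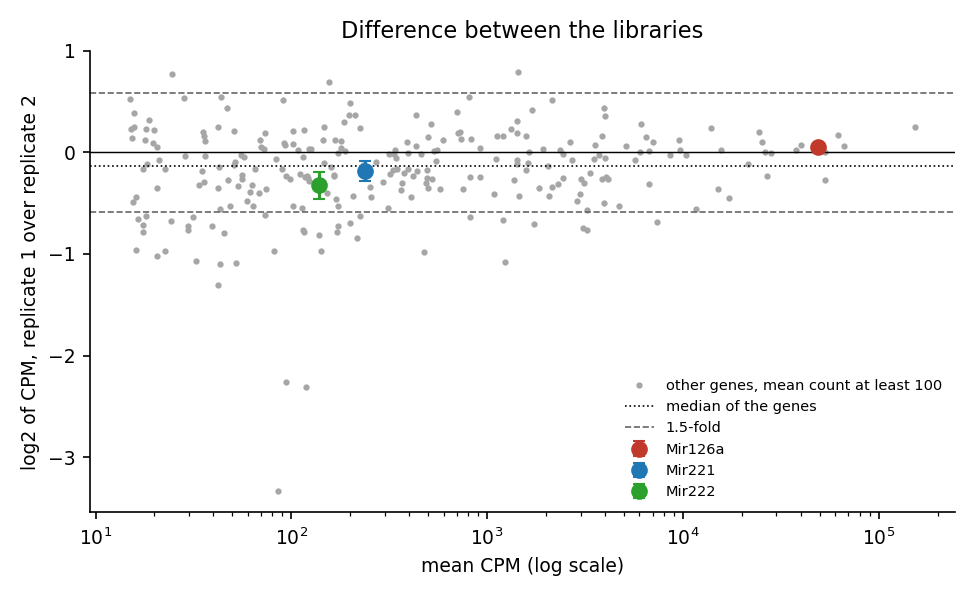
The log2 ratio of CPM in replicate 1 over replicate 2 (y axis) against mean CPM (x axis, log scale) for 264 genes, with 95% exact binomial intervals for the members. Mir126a at 0.06, Mir221 at -0.18 and Mir222 at -0.32 all lie inside the dashed lines at 1.5-fold, and the dotted line is the median of the genes, -0.13.

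The genes nearest to each member in level were found by the distance between their pairs of log2 CPM over the 2 libraries. For Mir126a they were Mirlet7g at 52957 ± 61.8 CPM, Mirlet7i at 52901 ± 7012 CPM and Mir322 at 40069 ± 1329 CPM (SD, n = 2 each). Mirlet7g and Mirlet7i are let-7 genes, whose miRNAs accumulate as tissues differentiate. Mir126a was above Mirlet7i in replicate 1, at 49708 CPM against 47943 CPM, and under it in replicate 2, at 47805 CPM against 57858 CPM. The order of Mir126a and Mirlet7i is therefore not settled by these libraries. Mir126a exceeded Mir322 and was under Mirlet7g in both.

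For Mir221 the nearest genes were Mir543, Mir540 and Mir155. Mir543 had 222.4 CPM in replicate 1 and 243 CPM in replicate 2, within the 95% interval of Mir221 in both. Mir540 had 252 ± 42.4 CPM and Mir155, known from activated leukocytes, had 255 ± 54.9 CPM (SD, n = 2 each). Mir543 and Mir540 both lie on chromosome 12. For Mir222 they were Mir92-2 at 137 ± 19.5 CPM, Mir665 at 152 ± 29.8 CPM and Mir24-2 at 146 ± 7.29 CPM. Mir92-2 and Mir24-2 share sequence with genes elsewhere. Mir222 was under Mir665 in both libraries, at 122 CPM against 131 CPM in replicate 1 and 153 CPM against 173 CPM in replicate 2. It was under Mir92-2 and Mir24-2 in replicate 1 and above both in replicate 2, so its order with these was not settled. Likeness over 2 libraries is a likeness of level and no more.

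**Figure D4:**
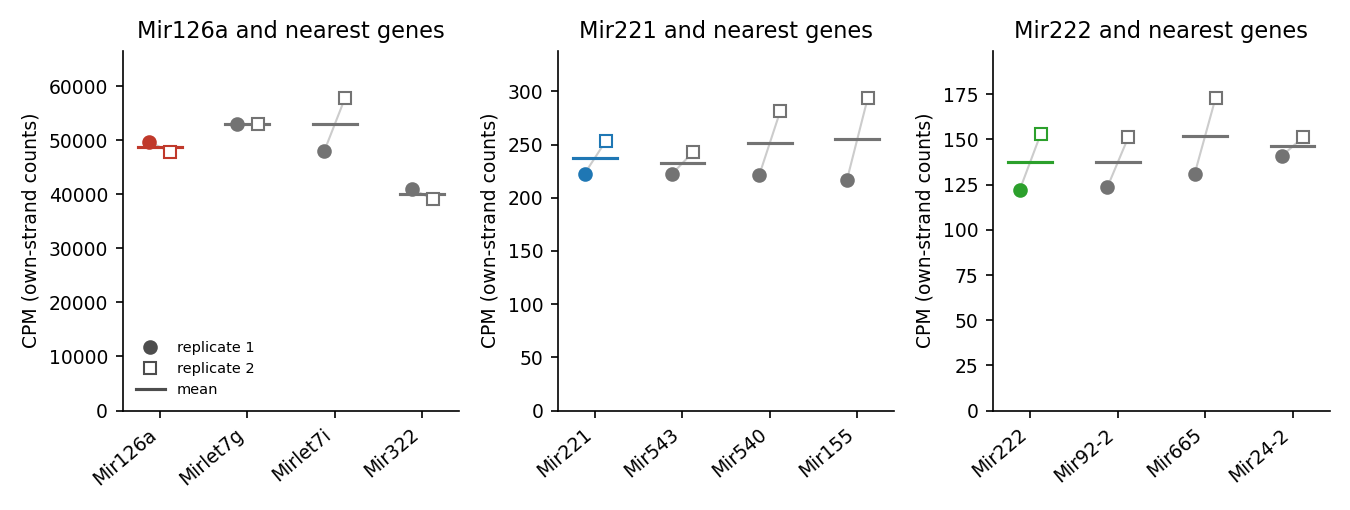
CPM of own-strand counts (y axis, from 0) of each member and the 3 genes nearest to it in level. Filled circles are replicate 1, open squares replicate 2 and bars the mean. Mir126a stays near 48756 CPM while Mirlet7i crosses it, and Mir221 and Mir222 are higher in replicate 2. The genes nearest to Mir221 and Mir222 are higher there too, which follows in part from choosing them by both libraries.

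Other miRNAs known from vessel growth or the response of endothelium to flow, most of which are made in many cell types, were measured as well. Of 22 genes on this list 21 were measured, and 17 of the 21 reached 100 CPM in both libraries, as did 8.77% of all genes in the files. Mir126a exceeded each of the 21 in both libraries. The highest of them were Mir322 at 40069 ± 1329 CPM, Mir17, from a cluster that promotes proliferation, at 28125 ± 62.0 CPM and Mir130a at 24333 ± 2437 CPM (SD, n = 2 each). Among the 20 listed genes whose mean count was 100 or more, the median log2 ratio of replicate 1 over replicate 2 was -0.05, against -0.13 over all 264 genes, and 1 of them, Mir218-2, passed 1.5-fold, as 15.9% of the 264 did. Of the 21 genes, 8 share sequence with genes elsewhere, so their levels can be too low. Mir24-1 was not analysed here.

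The lists also hold markers of cell types that lie beside or inside vessels. Mir143 and Mir145a, known from smooth muscle and pericytes, summed to 24953 CPM (replicate 1) and 29366 CPM (replicate 2), nearly all of it Mir143. Mir126a had 2.02 (95% exact binomial interval 2.01 to 2.03) reads per read of Mir143 in replicate 1 and 1.65 (1.64 to 1.66) in replicate 2. The ratio of Mir126a to Mir143 was thus lower in replicate 2, beyond counting error. Mir145a moved less than Mir143, with log2 ratios of replicate 1 over replicate 2 of -0.06 and -0.24.

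By these totals Mir221 and Mir222 were lower in replicate 1, and the sums of the blood marker lists were lower there too. So were the sum of the smooth muscle list and Mir122 of hepatocytes. Of the 264 genes with a mean count of 100 or more, only 98 were higher in replicate 1, so this direction was the common one. The highest measured blood gene, Mir223, hardly moved, at a log2 ratio of replicate 1 over replicate 2 of -0.0019. The 4 measured genes of leukocytes and platelets summed to 703 CPM (replicate 1) and 820 CPM (replicate 2). Of these 4, 0 had a count of 0, while most genes in the files had no own-strand reads. The list was led by Mir223 of myeloid cells at 393 ± 0.364 CPM, Mir155 at 255 ± 54.9 CPM and Mir146 at 101 ± 25.8 CPM. The 3 erythroid genes summed to 352 CPM (replicate 1) and 488 CPM (replicate 2), led by Mir451a at 313 ± 82.6 CPM, Mir144 at 89.96 ± 7.37 CPM and Mir486 at 17.5 ± 6.55 CPM (SD, n = 2 each). Summed, Mir221 and Mir222 had 0.878 (95% exact binomial interval 0.832 to 0.926) reads per read of Mir223 in replicate 1 and 1.03 (0.975 to 1.09) in replicate 2. The 2 genes summed thus stood near the level of Mir223 alone, while Mir126a stood far above every measured blood gene of the lists. Mir142, also on the leukocyte list, was not analysed here. The part of blood cells in the reads of Mir221 and Mir222 was not tested.

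The epithelial list was higher in replicate 1, as Mir126a and the sums of the kidney and muscle lists were. The kidney list was split, with 6 of its 11 genes of mean count 100 or more higher in replicate 1. Its genes Mir30a, Mir30d and Mir30e were lower there, at log2 ratios of replicate 1 over replicate 2 of -0.56, -0.50 and -0.45. The 5 genes of the miR-200 family summed to 24821 CPM (replicate 1) and 21319.8 CPM (replicate 2), led by Mir429 at 13878 ± 1610.5 CPM, Mir200c at 4015 ± 106 CPM and Mir200b at 3934 ± 828 CPM (SD, n = 2 each). Mir122 of hepatocytes had 319 CPM in replicate 1 and 628 CPM in replicate 2, and passed 1.5-fold. The kidney list was led by Mir10a at 153989.6 ± 18739.7 CPM, Mir10b at 61578 ± 5289 CPM and Mir196b at 25231 ± 1222 CPM. The muscle list summed to 1011 CPM (replicate 1) and 695 CPM (replicate 2), led by Mir206 at 809 ± 212 CPM, Mir208b at 24.5 ± 9.09 CPM and Mir499 at 19.97 ± 2.19 CPM. Whether a different make-up of the pools bears on the members' differences was not tested.

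**Figure D5:**
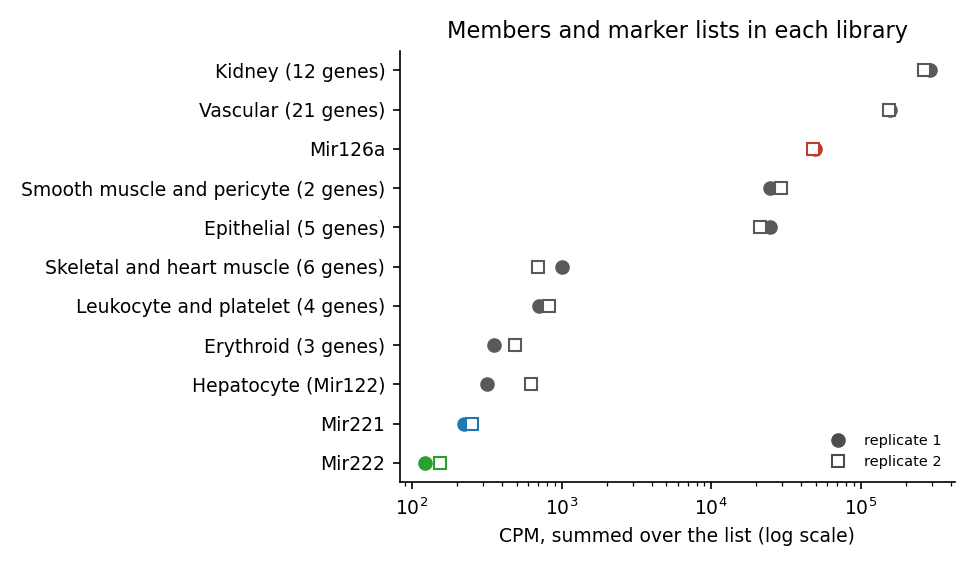
CPM (x axis, log scale) of each member and the summed CPM of each marker list in replicate 1 (filled circles) and replicate 2 (open squares). Mir126a lies above the smooth muscle and epithelial lists, and Mir221 and Mir222 lie under the leukocyte and erythroid lists in both libraries.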

How the data were processed

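MicroRNA sequencing gave 2 libraries of E15.5 kidney. Each deposited file gives raw read counts per gene for both strands, its own strand and the other strand. The authors counted alignments to mm10 with annotation M4, per the deposited notes. For the aligner and counter, names and versions were not given in the sources used here. Of all reads, those outside genes (47.3% of replicate 1 and 50.4% of replicate 2) were left out of totals. They include reads matching several loci, at 27.1% and 26.6%.

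Own-strand counts were scaled to CPM. GENCODE M21 gave names for 1894 of 1973 genes, and list symbols were also matched through RefSeq synonyms. Intervals are 95% exact (Clopper-Pearson) binomial intervals, and a count of 0 allows up to 3 counts. With 1 group no contrast was fitted. The ratio between libraries and its interval were tested on data simulated with counting error alone. That checks the calculation and not how well the interval covers differences between pools. edgeR 4.0.16 and DESeq2 1.42.0 in R 4.3.3 gave alternative scalings. Python 3.11.15, scipy 1.17.1, pandas 2.3.3, numpy 2.4.6 and matplotlib 3.10.9 did the rest.

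The members and lists were chosen with earlier results of these data known. Named genes are the members, genes overlapping them or sharing a seed, the 3 nearest in level, the 3 highest of each list, and the 2 widest and 2 narrowest pairs. Mir218-2, Mir24-1, Mir142, Mir30a, Mir30d, Mir30e, Egfl7, Gm20532 and Gm14636 fall outside this rule and were named after their values or places were seen. Alternatives were other totals, both strands, count filters, each replicate left out, pair distance, hairpin length and pairs without shared sequence, the last 2 added after the data were seen.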

Additional observations from a re-analysis of the deposited data

Results flagged for a closer look

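Mir126a had reads on the strand opposite to its hairpin, 39 in replicate 1 and 30 in replicate 2, which is 0.0106% and 0.0107% of all reads at this gene. These reads lie outside the own-strand counts used above and exceed 3 counts, the limit set by a count of 0. The study has no control samples. Of the 16 genes with a mean of at least 100000 own-strand reads, Mir126a was the only one with more than 3 opposite-strand reads in both libraries. Among 149 genes with at least 1000 own-strand reads in both libraries, 7 passed that limit, Mir126a included. Mir221 had 0 opposite-strand reads in both libraries and Mir222 had 1 in each. In GENCODE M21 another miRNA gene, Mir126b, lies opposite Mir126a at chr2:26591363-26591420, and it has no line in the files. Its annotated 5p arm is shown because 19 of its 22 bases in a row are the reverse complement of miR-126a-3p, with the seed in capitals.
miR-126b-5p: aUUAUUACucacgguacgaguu
Whether the opposite-strand reads come from Mir126b was not tested, since the files give no read sequences.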

How the results depend on the processing

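No paired analysis was possible because the study has 1 group. With all reads of a file as the total, mean levels were 24394 CPM for Mir126a, 119 CPM for Mir221 and 68.6 CPM for Mir222, and with Mir10a out of the total they were 57663, 281 and 163 CPM, since these choices change the divisor. Under TMM, DESeq2 size factors, both strands and a count filter of 10, the levels of all 3 members moved by less than 1 SD. Leaving out each replicate gave 47805 to 49708 CPM for Mir126a, 223 to 253 CPM for Mir221 and 122 to 153 CPM for Mir222. It gave log2 ratios of 0.72 to 0.86 for Mir221 over Mir222 and of 6.88 to 7.17 for Mir126a over both summed. Divided by hairpin length these ratios were 0.53 and 7.30. The pairs wider than Mir221 and Mir222 numbered 52 of 61 at a mean count of at least 10, 18 of 22 at 1000 (where Mir222 itself falls short) and 68 of 80 within 10 kb, as fewer or more pairs qualify. The log2 ratios between libraries kept their sign for all 3 members under every scaling tried, but the interval of Mir221 spanned 0 under TMM (-0.06), DESeq2 size factors (-0.02) and all reads as the total (-0.09). Having 2 libraries and whole-hairpin counts limits all values.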
